A study of Rattus norvegicus with 12 samples.

Results

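The genes described here build the fibrous and sheet-like extracellular matrix: collagens, laminins, nidogens, fibrillins, fibulins, thrombospondins and lysyl oxidases, with fibronectin (Fn1), elastin (Eln), periostin (Postn) and Sparc. They were chosen by gene symbol, from probe sets that the platform annotation gives a single symbol, and each gene was represented by its brightest probe set, judged by the mean over the 12 arrays. That gave 69 genes, held by 97 of the 31099 probe sets on the array, of 14217 genes named in this way in all. They comprise 11 fibrillar collagens, 19 basement membrane genes, 23 other collagens, 10 elastic fibre genes and lysyl oxidases, and 6 genes of fibronectin, thrombospondins and other matricellular proteins. Total RNA of primary rat astrocytes, cultured from the optic nerve head, was hybridised to 1-colour Affymetrix arrays. Cultures given epidermal growth factor (EGF) for 4 h were set against untreated control cultures, and in a second experiment the same was done for 12 h, with 3 arrays in each of the 4 groups (EGF 4 h, control 4 h, EGF 12 h and control 12 h). The strain and age of the rats and the dose of EGF are not given in the sources used here, nor whether the 3 arrays of a group came from separate cultures, so the p-values cover no more than the spread between these arrays, which may be technical.

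Collagens are rods of 3 chains wound around each other. The fibrillar types I, II, III, V and XI pack into the tensile fibrils of connective tissue, which lysyl oxidases then crosslink, while type IV forms a flexible network. In the basement membrane, that network is joined to laminin, a cross-shaped trimer of an alpha, a beta and a gamma chain, through nidogens. At the optic nerve head, astrocytes line basement membranes and surround the axons of the optic nerve.

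The type IV collagen genes are shown by their promoters first, because they lie head to head in pairs and the values of neighbours can be read side by side. Sequences are from RefSeq on GRCr8, 5' to 3' on the gene's strand, from 250 bases before the annotated start to 50 after it, and 52 of the 69 genes had such a sequence. Capitals mark each match to GGGCGG, the GC box, on either strand.
Col4a6, chrX:109905895-109906194, minus strand: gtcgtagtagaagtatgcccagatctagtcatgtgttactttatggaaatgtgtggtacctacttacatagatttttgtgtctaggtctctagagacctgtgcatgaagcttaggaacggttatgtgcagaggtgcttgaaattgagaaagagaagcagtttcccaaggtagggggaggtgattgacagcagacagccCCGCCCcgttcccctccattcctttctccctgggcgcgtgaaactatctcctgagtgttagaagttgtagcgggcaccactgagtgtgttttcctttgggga
Col4a5, chrX:109907109-109907408, plus strand: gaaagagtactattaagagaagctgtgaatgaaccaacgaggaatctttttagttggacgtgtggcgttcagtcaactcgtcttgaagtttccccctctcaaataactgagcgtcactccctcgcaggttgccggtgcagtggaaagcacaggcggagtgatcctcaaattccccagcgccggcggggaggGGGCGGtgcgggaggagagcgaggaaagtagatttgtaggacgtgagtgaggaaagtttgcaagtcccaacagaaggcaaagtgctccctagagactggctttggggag
Col4a1, chr16:84885347-84885646, plus strand: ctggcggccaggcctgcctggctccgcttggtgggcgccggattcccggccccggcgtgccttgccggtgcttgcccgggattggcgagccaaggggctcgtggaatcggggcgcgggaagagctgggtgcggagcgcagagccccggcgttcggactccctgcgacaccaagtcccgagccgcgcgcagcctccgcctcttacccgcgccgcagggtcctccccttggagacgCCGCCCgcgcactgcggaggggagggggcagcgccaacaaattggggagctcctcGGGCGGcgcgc
The starts of Col4a6 and Col4a5 lie 1415 bases apart on chromosome X and face away from each other. Those of Col4a2 and Col4a1 lie 77 bases apart on chromosome 16, so the window of Col4a2 overlaps the one shown by 176 bases. The shown windows of Col4a6 and Col4a5 hold 1 GC box match each and that of Col4a1 holds 2. Over 27457 promoters of this length in the table, 34.9% hold the GC box, 7.33% TGANTCA (the AP-1 motif, both strands) and 14.3% TATAAA. Of the 36 tested genes of the set that have such a promoter, 22 hold the GC box, 1 the AP-1 motif and 3 TATAAA. A match is a description of these letters only.

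Of the 69 genes, 50 were bright enough to be tested, with a mean signal over all arrays at or above 215.4, the 40th percentile of all probe sets. They were 8 fibrillar collagens, 16 basement membrane genes, 11 other collagens, all 10 elastic fibre genes and lysyl oxidases, and 5 of the last group. The 19 dim genes had mean signals of 15.6 to 191.9 and are given no fold change. They were Col2a1 (the cartilage fibril collagen), Col11a2, Col24a1, Col4a4, Lama1, Lama3, Thbs4 and 12 other collagens, among them Col7a1, Col9a1, Col10a1 and Col13a1. In 5 tested genes (Lamb3, Col6a3, Col9a2, Fbln2 and Fbn2) at least 1 group mean lay under that limit. Signals are the authors' MAS5 values on a linear scale. Fold changes are log2 differences of EGF minus control, on log2(signal + 24.4), with their standard error (SE), tested with limma and adjusted over all 18625 tested probe sets.

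Some facts of the whole series touch these results. The defining astrocyte markers were weak: Gfap, Aqp4, Slc1a2, Aldh1l1, Fabp7 and Pax2 stayed under the limit for testing, with Gfap at 195 and 215 signal units in EGF and control cultures at 4 h and 130.1 and 201 at 12 h. The intermediate filament Vim and the glutamine synthetase Glul were bright, at 72429 and 5664 on average. Of 6 tested astrocyte markers, 1 was higher and 0 lower at 4 h (log2 fold changes of -0.17 to 2.37). At 12 h, 1 was higher and 1 lower (-1.28 to 2.36). Summed over the 12 astrocyte markers on the array, signals were 70850 to 77333 with EGF and 70086 to 76579 in controls at 4 h. At 12 h these sums were 79857 to 122719 and 76629 to 85682. Vim, at 72429 on average, made up most of these sums, so they say little of the dimmer astrocyte markers. Of 16 fibroblast and meningeal markers, 14 were bright enough to test, with Ogn at 28353 and Dcn at 8429 on average. At 12 h, 4 of these 14 were higher and 6 lower with EGF, among the lower Dcn (-3.03 ± 0.16), Ogn (-1.99 ± 0.14) and Pdgfra (-1.26 ± 0.15) and among the higher S100a4 (3.10 ± 0.16), Prrx1 (2.49 ± 0.48) and Twist2 (1.89 ± 0.70). Summed over all 16, dim ones included, the signal was 82132 to 95671 on EGF arrays, against 93696 to 109609 on control arrays. At 4 h, 4 of the 14 were higher and 3 lower, with sums over all 16 of 86216 to 95227 and 74332 to 87426. Summed signals of oligodendrocyte lineage markers were 4166 to 4796 with EGF and 6452 to 7540 in controls at 4 h, and 4546 to 5756 and 9106 to 9640 at 12 h. Those of Schwann cell markers were 27876 to 29412 and 17772 to 19438 at 4 h, and 8120 to 10581 and 9492 to 11954 at 12 h. Those of microglia markers were 737 to 913 and 989 to 1196 at 4 h, and 1470 to 2106 and 699 to 1040 at 12 h. Of all tested probe sets 11.4% were higher and 16.5% lower at 4 h, and 15.3% and 20.8% at 12 h. Of 4 tested oligodendrocyte lineage markers, 0 were higher and 2 lower at 4 h (-1.23 to 1.12). At 12 h these were 1 and 2 (-1.24 to 2.01). Of 3 tested Schwann cell markers, 1 was higher and 0 lower at 4 h (-0.38 to 2.82), and 1 and 2 at 12 h (-0.74 to 1.18). Of 3 tested microglia markers, 0 were called at 4 h, and 1 was higher and 0 lower at 12 h (-0.05 to 3.70). The part of such cells in the results below was not tested. On bulk RNA, fewer cells of a type and less RNA per cell cannot be told apart. Of the endothelial markers only Tek passed the limit, and it was lower at both times (-1.18 ± 0.19 at 12 h); the summed endothelial signal was 1370 to 1873 with EGF and 2767 to 3407 in controls at 4 h, and 1270 to 1787 and 2725 to 3396 at 12 h. Of 4 tested pericyte and smooth muscle markers 0 were called at either time (unadjusted p under 0.05 for 0 at 4 h and 0 at 12 h), and neuron markers were all under the limit. By its control probe sets, EGF replicate 3 at 12 h stood apart within its time. The signal ratio of the 3' to the 5' end of actin measures how far labelled RNA reaches from the 3' end. It was 1.24 on that array, 11.1 to 21.7 on the other 5 of 12 h, and 1.20 to 1.61 at 4 h. By this measure the other 5, all 3 controls among them, differ from the 4 h arrays, and EGF replicate 3 does not. The part of this in the 12 h values was not tested. Replicate 3 of both groups at 4 h forms a further set, with hybridisation control signals of 29705 and 33381, against at most 84.8 elsewhere.

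Which matrix genes respond within 4 h was the first comparison. After 4 h of EGF, 11.4% of all tested probe sets were higher and 16.5% lower (27.8% in all). With 1 probe set per gene, 32.4% of 10261 tested genes were called. Of the 50 tested genes of the set, 6 were higher and 3 lower. The higher ones were the type VI collagen genes Col6a1 and Col6a3, the basement membrane genes Col15a1, Nid2 and Lamc1, and Postn, and the lower ones were the elastic fibre gene Fbln5, Lama4 and Col4a5. No fibrillar collagen was called (0 of 8 by limma, and 1 at an unadjusted p under 0.05). The median of the 50 log2 fold changes was -0.22, beside -0.15 over all tested probe sets. EGF and control arrays did not overlap in 7 genes that were higher and 14 that were lower, where the shares over all tested probe sets were 18.3% and 29.8% (48.1% in either direction). Blocking on array set, 9 genes were higher and 7 lower.

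**Figure D1:**
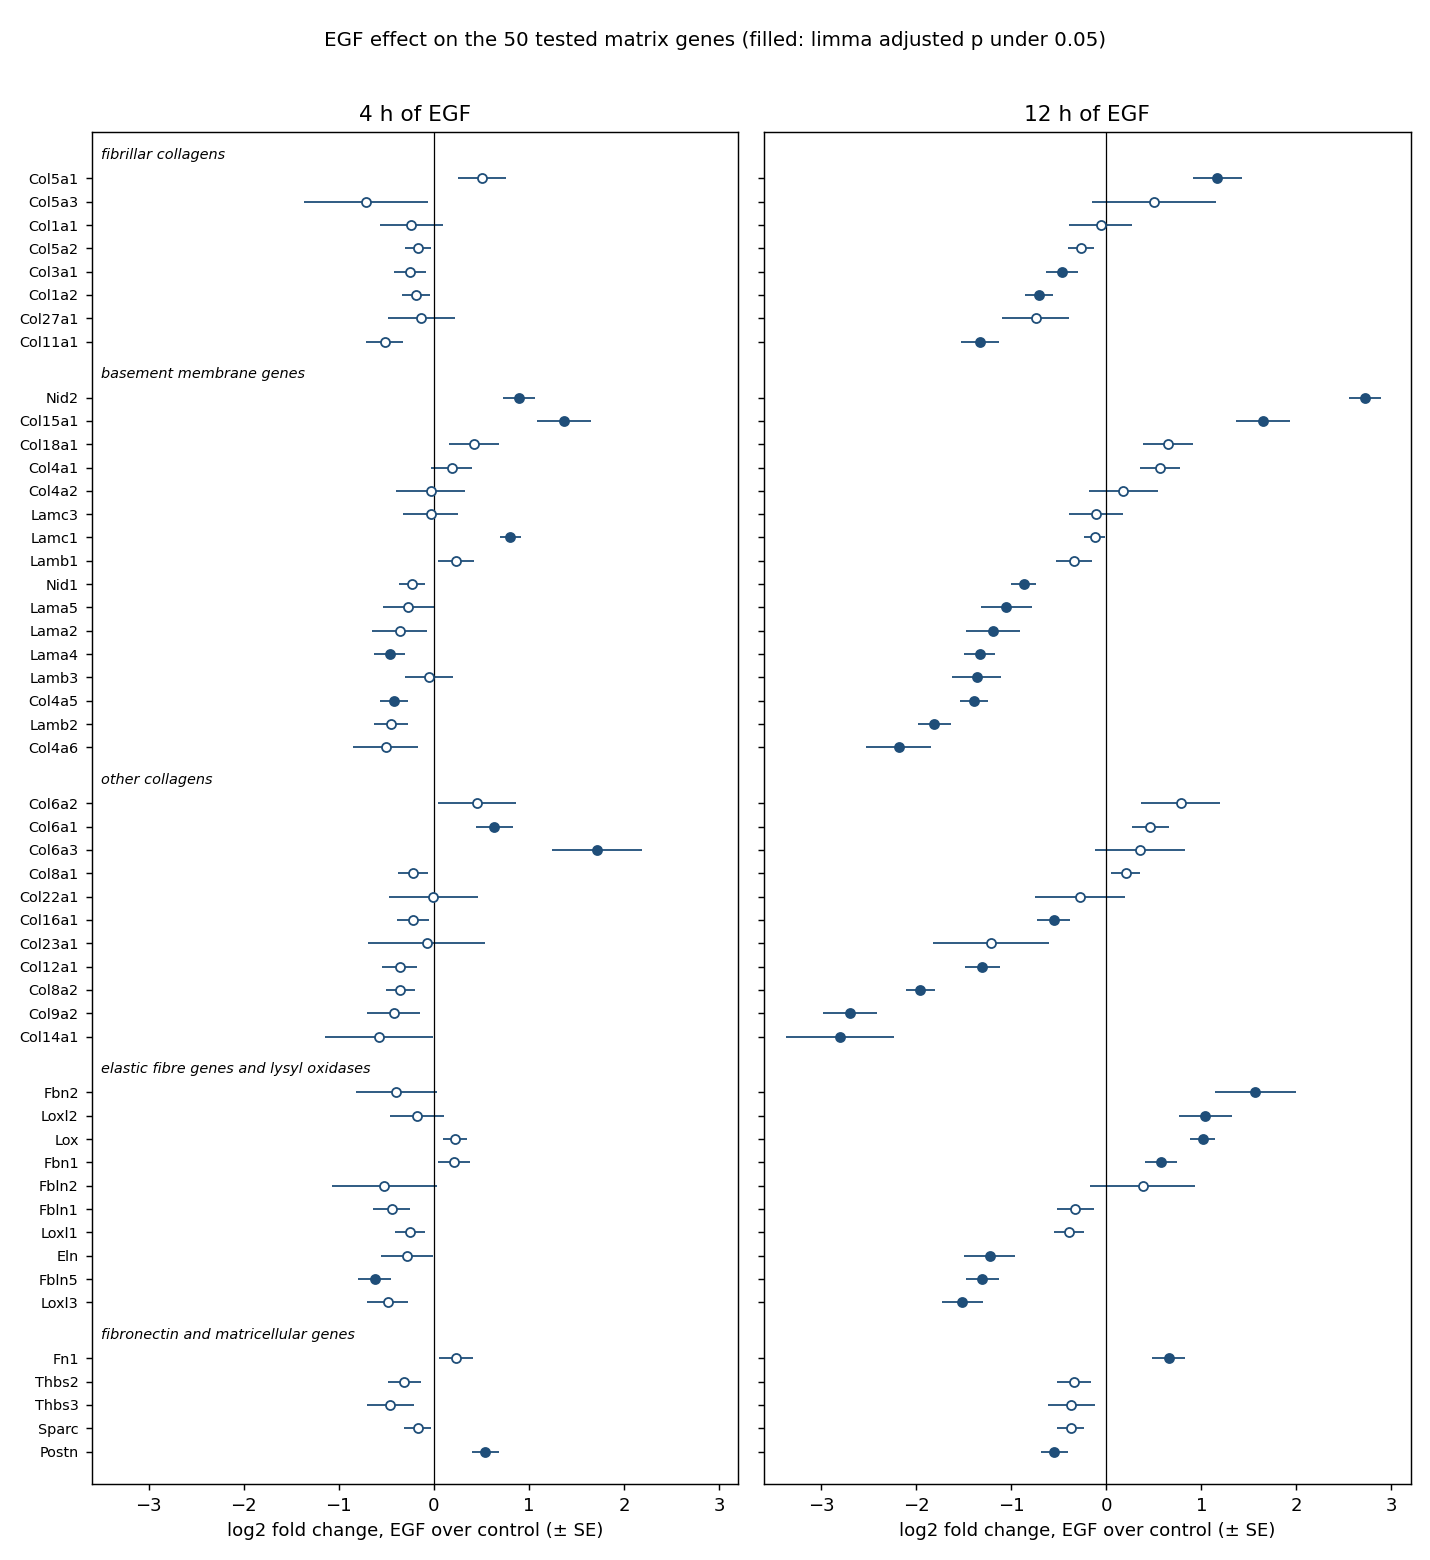
Log2 fold change of EGF over control (horizontal axis, ± SE, limma over 12 arrays) for the 50 tested matrix genes, ordered within each class by the 12 h value, at 4 h (left) and 12 h (right); filled points have an adjusted p under 0.05. Filled points number 9 at 4 h and 28 at 12 h, of which 20 lie below 0.

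Among basement membrane genes, laminin gamma 1 (Lamc1), the gamma chain of most laminins, had 25463, 24889 and 24114 on the EGF arrays, against 14064, 14581 and 14015 on the control arrays. Its 4 h EGF arrays all lay well above the controls, with a log2 fold change of 0.80 ± 0.11 (SE) with an adjusted p of 0.000128. A second, dimmer probe set of Lamc1 gave 0.67 and did not pass (adjusted p = 0.324), but it passed without EGF replicate 3 of 12 h (0.000958). Nidogen 2 (Nid2), which links laminin to type IV collagen, had 2575, 3017 and 3324 on the EGF arrays, against 1514, 1593 and 1626 on the control arrays, without overlap. It had a log2 fold change of 0.90 ± 0.17 (SE) with an adjusted p of 0.00123. Col15a1, a collagen of the basement membrane zone that anchors it to the tissue beneath, had 2740.1, 2821 and 2003 on the EGF arrays, against 916, 1142 and 821 on the control arrays. The lowest EGF array again lay above the highest control (log2 fold change of 1.37 ± 0.29 (SE) with an adjusted p of 0.00305), and its second probe set gave 1.22 (adjusted p = 0.0451). Lama4, the laminin alpha chain of vessels and nerve sheaths, was lower, with 1762, 1718 and 1582 on the EGF arrays, against 2305, 2372 and 2333 on the control arrays. The groups were apart but by little (log2 fold change of -0.47 ± 0.16 (SE) with an adjusted p of 0.0489). Col4a5, a type IV chain that forms trimers with other minor chains, had 21539, 19453 and 18682 on the EGF arrays, against 25168, 26729 and 27776 on the control arrays. It was lower as well (log2 fold change of -0.42 ± 0.15 (SE) with an adjusted p of 0.0484), and in the fit that pairs arrays by replicate number it did not pass (adjusted p = 0.0799). In that fit Lamb2, at -0.45, passed (adjusted p = 0.0261), as it did without EGF replicate 1 of 4 h or EGF replicate 3 of 12 h (0.0234 to 0.0324).

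Outside the basement membrane, Col6a3, a long chain of the type VI microfibrils that surround cells, had 706, 560.1 and 643 on the EGF arrays, against 300.5, 289 and 54.4 on the control arrays. Control replicate 3 was far below the other controls, and the gene had a log2 fold change of 1.72 ± 0.47 (SE) with an adjusted p of 0.015. Without replicate 3 of both groups it gave 1.03 and was not called (adjusted p = 0.0702). Col6a1, its partner chain, had 16124, 18941 and 14262 on the EGF arrays, against 11998, 11480.0 and 8415 on the control arrays. These groups were apart too (log2 fold change of 0.64 ± 0.19 (SE) with an adjusted p of 0.0261). Col6a2, the remaining partner, had 8198, 7905 and 4368 on the EGF arrays, against 6035, 6366 and 2865 on the control arrays and was not called (0.45 ± 0.41, adjusted p = 0.464), with replicate 3 low in both groups. Postn, a matricellular protein that binds collagen and fibronectin, had 13321, 15420.2 and 14941 on the EGF arrays, against 10332, 10189.6 and 9454 on the control arrays. All EGF arrays exceeded all controls (log2 fold change of 0.54 ± 0.14 (SE) with an adjusted p of 0.0115). Fbln5, which tethers elastin to cells and microfibrils, had 5253, 4518 and 3910.3 on the EGF arrays, against 7690.2, 7570.2 and 5843 on the control arrays. It was lower without overlap (log2 fold change of -0.62 ± 0.17 (SE) with an adjusted p of 0.017).

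Of the 9 calls at 4 h, 6 were lost without some single array, while the calls of Col15a1 and Nid2 were kept in all 23 alternatives. Lama4 and Col4a5 did not pass without any 1 of the 6 arrays of 4 h or the 3 controls of 12 h (adjusted p = 0.0538 to 0.121 and 0.0616 to 0.125). Fbln5 did not pass without EGF replicate 2 or 3 or control replicate 1 or 2 (0.052 to 0.073), Col6a1 without EGF replicate 1 or 2 or control replicate 3 (0.063 to 0.113), Col6a3 without EGF replicate 1 (0.0528) and Postn without EGF replicate 2 (0.0507). With both replicate 3 arrays of 4 h left out, Col6a1 (adjusted p = 0.0897), Postn (0.0853), Lama4 (0.187) and Col4a5 (0.235) did not pass, as Col6a3 did not. The count of lower genes was 0 without EGF replicate 2 or 3 or control replicate 1 or 2 at 4 h, 1 without control replicate 3 at 4 h or any 12 h control, and 7 without EGF replicate 3 at 12 h. Conversely, Col11a1 passed as lower without EGF replicate 2 or 3 of 12 h (0.0265 to 0.029), Col8a2 and Loxl3 without EGF replicate 3 of 12 h (0.0307 and 0.02), and Col5a1 and Col18a1 as higher without EGF replicate 3 of 4 h (0.00578 and 0.0269). With arrays centred on their medians, the median over all tested probe sets was -0.04 in place of -0.15. That left 6 genes higher and 1 lower, and over all tested probe sets the higher share of calls was 53.1% in place of 40.8% (52.6% in place of 42.3% at 12 h, with 10 genes higher and 18 lower).

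Whether the matrix genes differ after longer exposure was the comparison at 12 h. Here 15.3% of all tested probe sets were higher with EGF and 20.8% lower (36.1% in all). With 1 probe set per gene, 40.8% of 10261 tested genes were called. Of the 50 tested genes of the set, 8 were higher and 20 lower. Nid2 rose most, and Col15a1, Fbn2, Col5a1, Loxl2, Lox, Fn1 and Fbn1 rose as well. The lower ones included 5 laminin chains, Nid1, both tested minor type IV chains, 3 fibrillar collagens and 5 other collagens. Of the 28, 6 that were higher and 15 that were lower changed at least 2-fold, while of all 18625 tested probe sets 1399 and 1831 did. The median of the 50 log2 fold changes was -0.35, beside -0.06 over all tested probe sets. The arrays did not overlap in 9 genes that were higher and 23 that were lower, against 19.7% and 28.3% of all tested probe sets (48% in either direction). Blocking on array set, 10 genes were higher and 23 lower. EGF replicate 3 of 12 h forms a set alone, so at this time that block takes the effect from the other arrays only.

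**Figure D2:**
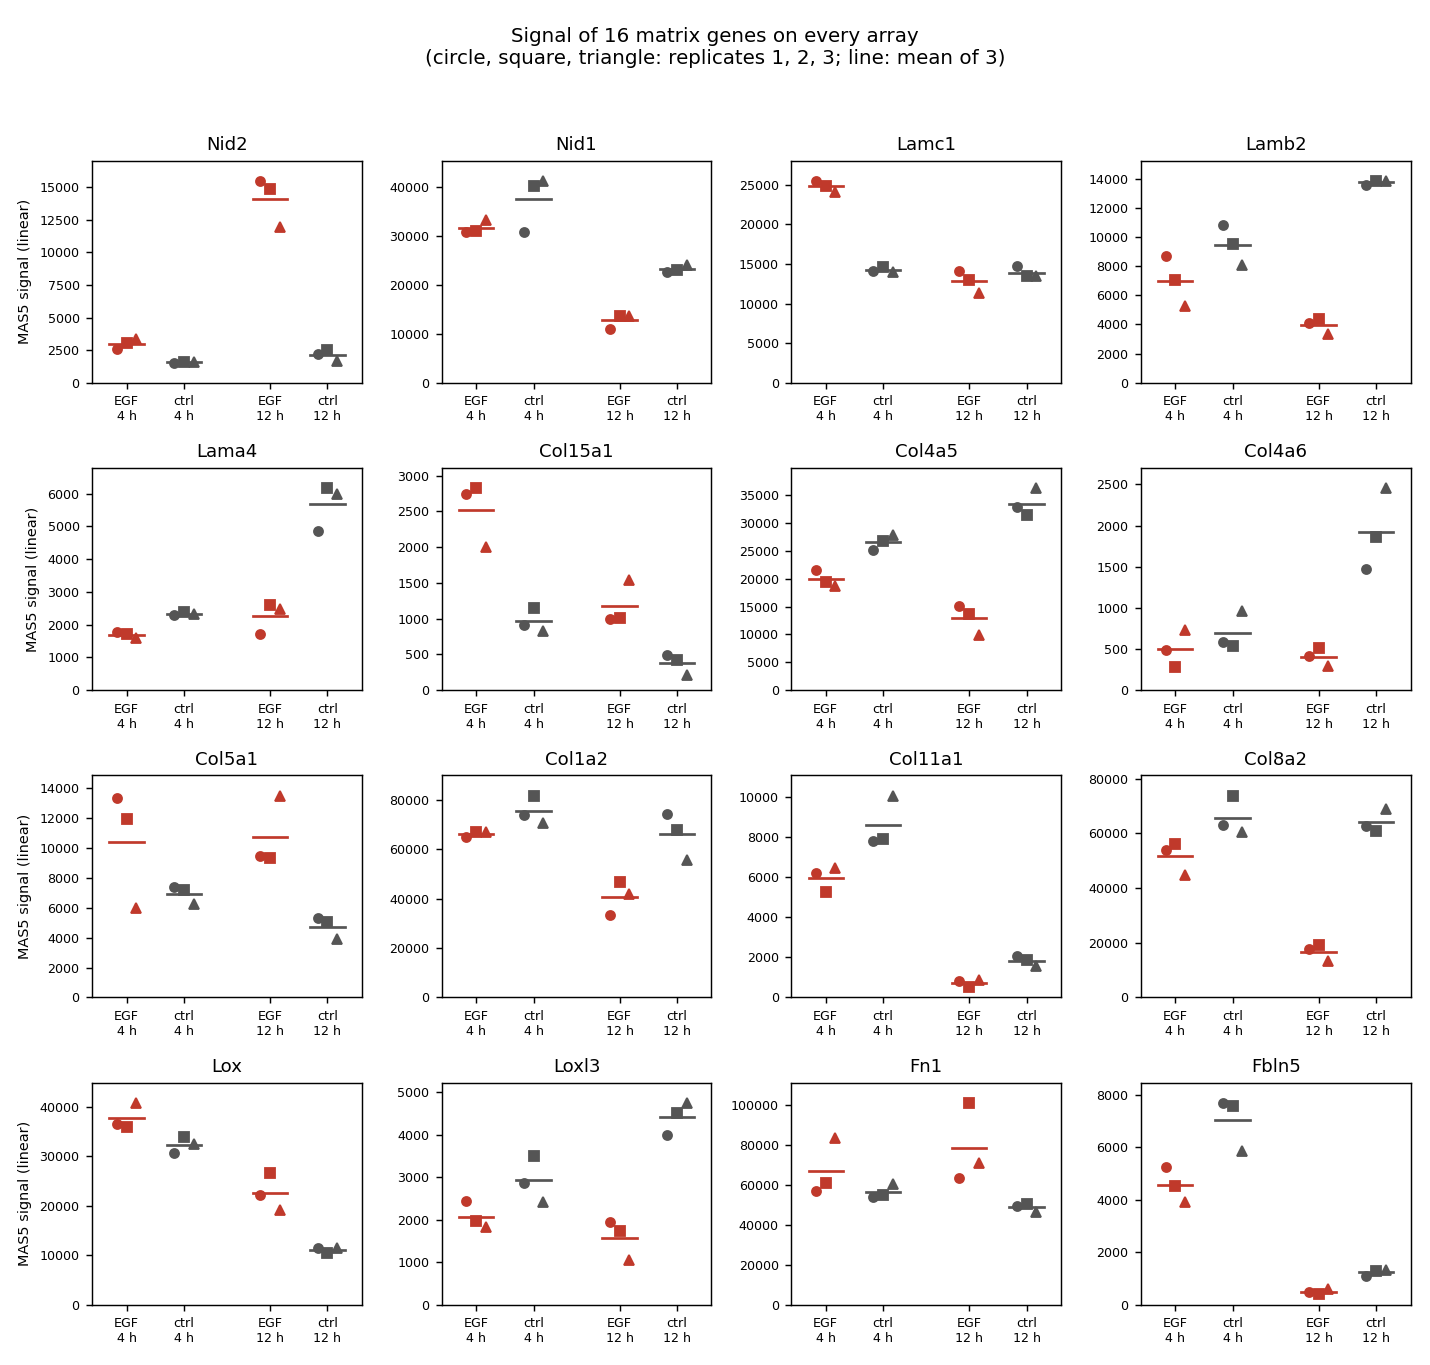
MAS5 signal (vertical axis, linear, from 0) of 16 matrix genes on each array, EGF in red left of control in grey, at 4 h and 12 h; circles, squares and triangles are replicates 1, 2 and 3 and lines are group means. Nid2 on the 12 h EGF arrays lies between 11950 and 15458, above every other array, while Lamb2 and Col4a5 are lowest on those arrays.

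Laminin chains at 12 h were lower in every alpha chain tested and in both beta chains that were called. Lamb2, the beta chain of muscle, nerve and glial basement membranes, had 4125, 4347 and 3327 on the EGF arrays, against 13576, 13831 and 13829 on the control arrays. The controls differed among themselves by little and the EGF arrays were all far below them (log2 fold change of -1.81 ± 0.18 (SE) with an adjusted p of 4.34e-06). Lama4 had 1716, 2603 and 2485 on the EGF arrays, against 4871, 6162 and 5999 on the control arrays, again without overlap. It had a log2 fold change of -1.33 ± 0.16 (SE) with an adjusted p of 3.36e-05. Lama2, the alpha chain of muscle and Schwann cell laminins, had 318, 324 and 334 on the EGF arrays, against 711, 649.6 and 1009 on the control arrays. Every EGF array was lower (log2 fold change of -1.19 ± 0.29 (SE) with an adjusted p of 0.00537). Lama5, an alpha chain of many adult basement membranes, had 414, 410.1 and 310.2 on the EGF arrays, against 1078, 974 and 489.9 on the control arrays, with control replicate 3 far below the other controls but still above the EGF arrays (log2 fold change of -1.05 ± 0.27 (SE) with an adjusted p of 0.00773). Lamb3, part of the laminin of epithelial anchoring sites, had 277, 234 and 276 on the EGF arrays, against 708, 809.7 and 628 on the control arrays. The EGF arrays were little above the limit for testing (log2 fold change of -1.36 ± 0.26 (SE) with an adjusted p of 0.000992). The chains Lamb1 and Lamc1, which most laminin trimers share, were not called: -0.34 ± 0.19 for Lamb1 (adjusted p = 0.18) and -0.12 ± 0.11 for Lamc1 (adjusted p = 0.415). Without EGF replicate 2, Lamb1 passed at -0.53 (adjusted p = 0.037). The second probe set of Lamc1 had the opposite sign, at 0.77 (adjusted p = 0.219), and gave -0.045 without EGF replicate 3 of 12 h (0.838).

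The nidogens moved apart at 12 h. Nid2 had 15458, 14814 and 11949.6 on the EGF arrays, against 2206, 2495 and 1678 on the control arrays. Means were 14074 ± 1868 and 2126 ± 414 signal units (SD, n = 3 arrays each), a log2 fold change of 2.72 ± 0.17 (SE) with an adjusted p of 5.61e-08, or 6.6-fold. Nid1, its more widely expressed relative, had 11029, 13569 and 13694 on the EGF arrays, against 22663, 23043 and 23998 on the control arrays. On this probe set every EGF array was lower (log2 fold change of -0.87 ± 0.13 (SE) with an adjusted p of 0.000215). The other Nid1 probe set, with a mean signal of 2542 against 26276, had 786, 766 and 1826 on the EGF arrays, against 1151, 1091 and 698 on the control arrays, and gave a log2 fold change of 0.11 with an adjusted p of 0.8. EGF replicate 3 was the high array there, and without it that probe set gave -0.30 (adjusted p = 0.257), so the call of Nid1 rests on its brighter probe set.

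Of the type IV collagen chains, the minor Col4a5 and Col4a6 were lower at 12 h, while Col4a1 and Col4a2 were not called. Col4a5 had 15135, 13665 and 9939 on the EGF arrays, against 32808, 31374 and 36192 on the control arrays, less than in any control (log2 fold change of -1.39 ± 0.15 (SE) with an adjusted p of 8.63e-06). Col4a6, its neighbour on the X chromosome, had 409, 511 and 297 on the EGF arrays, against 1474, 1856 and 2452 on the control arrays. It fell without overlap (log2 fold change of -2.18 ± 0.34 (SE) with an adjusted p of 0.000236), and its second probe set gave -1.54 (adjusted p = 0.000366). The major chains of nearly all basement membranes, Col4a1 and Col4a2, which lie head to head on chromosome 16, were not called. Col4a1 had 10465, 17189 and 19127 on the EGF arrays, against 9604, 12202 and 9073 on the control arrays, a log2 fold change of 0.56 ± 0.21 (adjusted p = 0.0535). It passed without EGF replicate 3 at 4 h, control replicate 2 at 12 h or EGF replicate 1 at 12 h (adjusted p = 0.00292 to 0.0485), and with each array centred on its median (0.0262). Its second probe set, with a mean signal of 16520 against 17326, gave 0.13 (adjusted p = 0.692), and -0.14 without EGF replicate 3 of 12 h (0.593). Col4a2 stood at 0.18 ± 0.37 (adjusted p = 0.733). Col15a1 had 992, 1015 and 1541 on the EGF arrays, against 497, 417 and 209 on the control arrays, higher without overlap (log2 fold change of 1.65 ± 0.29 (SE) with an adjusted p of 0.000563). Col18a1, the other collagen of this zone, whose fragment is endostatin, gave 0.65 ± 0.26 and was not called (adjusted p = 0.0676). It passed without EGF replicate 3 of 4 h or of 12 h (0.0212 to 0.0285), and its second probe set gave 0.98 (0.0386).

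Fibrillar collagens at 12 h were 1 higher, 3 lower and 4 in neither direction. Col11a1, a minor fibril chain of cartilage and eye, had 828, 511 and 847 on the EGF arrays, against 2079.7, 1859.9 and 1554 on the control arrays. It was lower on every EGF array (log2 fold change of -1.33 ± 0.20 (SE) with an adjusted p of 0.000165), and a second probe set gave -1.83 (adjusted p = 0.000165). Col1a2, the alpha 2 chain of type I collagen, the main collagen of most connective tissue, had 33221, 46681 and 41781 on the EGF arrays, against 74266, 67738 and 55732 on the control arrays. It was lower (log2 fold change of -0.70 ± 0.15 (SE) with an adjusted p of 0.002), and its second probe set gave -0.97 (adjusted p = 0.000302). Col3a1, the reticular fibre collagen, had 57699, 93237 and 70539 on the EGF arrays, against 106602, 96845 and 97466 on the control arrays. The groups were just apart (log2 fold change of -0.47 ± 0.17 (SE) with an adjusted p of 0.0421), and the call was lost in 13 of 23 alternatives, among them 8 that leave out 1 array: EGF replicate 2 or control replicate 2 or 3 of 4 h, any control of 12 h, or EGF replicate 1 or 3 of 12 h (adjusted p = 0.0504 to 0.145). Col5a1, a chain of the type V collagen that starts and thins fibrils, went the other way, with 9445, 9305 and 13484 on the EGF arrays, against 5305, 5030.5 and 3875 on the control arrays. Its EGF arrays lay above all controls (log2 fold change of 1.17 ± 0.26 (SE) with an adjusted p of 0.00287), and the second probe set gave 1.22 (adjusted p = 0.00236). Its partner Col5a2 had -0.26 ± 0.14 and was not called (adjusted p = 0.152). Without EGF replicate 2 it gave -0.41 (adjusted p = 0.0199). The second probe set of Col5a2 passed as lower, at -0.37 (adjusted p = 0.0309), but not without EGF replicate 3 (-0.245, adjusted p = 0.085).

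Col1a1, the alpha 1 chain of type I collagen, had 18108, 27385 and 66392 on the EGF arrays, against 33044, 38049 and 29667 on the control arrays. Replicates 1 and 2 of EGF lay below every control and replicate 3 far above them all. The log2 fold change was -0.06 ± 0.33 (adjusted p = 0.906), and without EGF replicate 3 it was -0.58 (adjusted p = 0.0156). The second probe set also had replicate 3 above the controls and replicates 1 and 2 below them, with 7427, 7023 and 17290.4 on the EGF arrays, against 13114, 12259.7 and 11583 on the control arrays. Col4a2, with 6220.5, 8674 and 18096 on the EGF arrays, against 9584, 10263 and 6829.6 on the control arrays, and Col6a2, with 3531, 4533 and 12157 on the EGF arrays, against 3101, 4089 and 2979.5 on the control arrays, were also highest on EGF replicate 3. Of the 50 tested genes, 4 (these 3 and Col23a1) had at least 2 times the mean of EGF replicates 1 and 2 on EGF replicate 3. Without that array Col23a1 gave -1.85 (adjusted p = 0.0173) and was called. That array is the one with the actin ratio of 1.24, within the range of the 4 h arrays, and the part of RNA quality in these values was not tested.

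**Figure D3:**
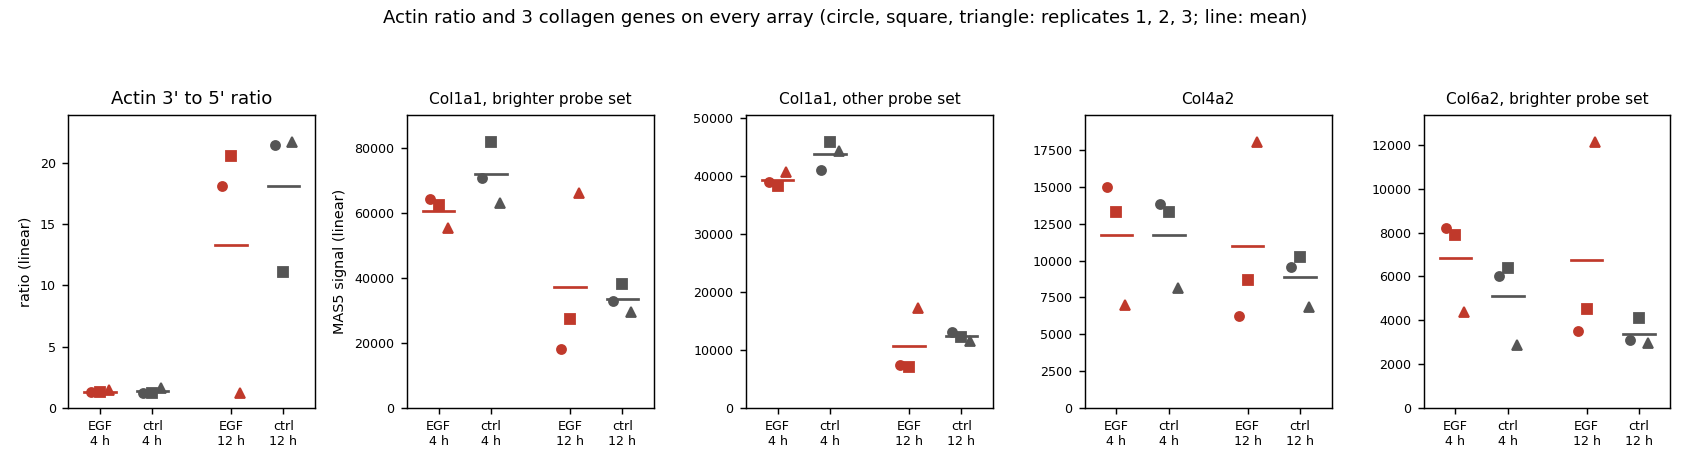
The actin 3' to 5' signal ratio (left panel, linear) and the MAS5 signals (linear, from 0) of both Col1a1 probe sets, Col4a2 and the brighter Col6a2 probe set on each array, EGF in red left of control in grey; circles, squares and triangles are replicates 1, 2 and 3 and lines are means. EGF replicate 3 at 12 h has the ratio 1.24, against 11.1 to 21.7 on the other 12 h arrays and 1.20 to 1.61 at 4 h. In the 4 collagen panels EGF replicate 3 at 12 h lies above the other 12 h arrays.

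Other collagens at 12 h had 0 higher, 5 lower and 6 in neither direction of 11 tested. Col8a2, a chain of the short, network-forming type VIII collagen of corneal and vascular membranes, had 17826, 19050.5 and 13208 on the EGF arrays, against 62678, 60867 and 68986 on the control arrays. Every EGF array was far below every control (log2 fold change of -1.96 ± 0.15 (SE) with an adjusted p of 4.83e-07). Its partner chain Col8a1 had 59976, 91866 and 57845 on the EGF arrays, against 62156, 58398 and 57513 on the control arrays and was not called (0.20 ± 0.16, adjusted p = 0.338). Col9a2, of the type IX collagen that decorates cartilage and vitreous fibrils, had 296, 134 and 158 on the EGF arrays, against 1831, 1418 and 909.6 on the control arrays. EGF arrays were near or under the limit for testing (log2 fold change of -2.69 ± 0.28 (SE) with an adjusted p of 8.62e-06). Col14a1, which lies on fibril surfaces, had 292, 50.2 and 311 on the EGF arrays, against 3225, 1158 and 676 on the control arrays. The controls spread widely, and the log2 fold change of -2.80 ± 0.57 (SE) with an adjusted p of 0.00172 was not matched by a dimmer probe set, at -0.94 (adjusted p = 0.15). Col12a1, its relative on fibrils under tension, had 2504, 2179 and 1873 on the EGF arrays, against 4668, 6073 and 5528 on the control arrays and was lower (log2 fold change of -1.30 ± 0.18 (SE) with an adjusted p of 9.95e-05), but on a second, dimmer probe set it gave -0.34 (adjusted p = 0.722). Col16a1 was lower by a small amount (log2 fold change of -0.55 ± 0.17 (SE) with an adjusted p of 0.0211) and did not pass without control replicate 1 or 2 of 12 h (0.0568 to 0.0877). Of the type VI genes called at 4 h, Col6a1 gave 0.47 ± 0.19 (adjusted p = 0.0778) and Col6a3 0.36 ± 0.47 (adjusted p = 0.587) at 12 h. Without control replicate 3 or EGF replicate 3 at 12 h, Col6a1 passed (0.0108 to 0.0445). Without EGF replicate 1 at 12 h, Col6a2 gave 1.14 (0.0489), while its second probe set gave 0.08 over all arrays (0.828).

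The crosslinking enzymes split at 12 h. Lysyl oxidase (Lox), which starts the crosslinks of collagen and elastin, had 22125, 26748 and 19204 on the EGF arrays, against 11482, 10510.1 and 11397 on the control arrays. EGF arrays lay clearly above the controls (log2 fold change of 1.01 ± 0.13 (SE) with an adjusted p of 4.32e-05), and the second probe set gave 0.77 (adjusted p = 0.00309). Loxl2, which crosslinks type IV collagen, had 3422, 3878 and 2131 on the EGF arrays, against 1779, 1515 and 1169 on the control arrays. It was higher (log2 fold change of 1.04 ± 0.28 (SE) with an adjusted p of 0.0104), but it did not pass without control replicate 3 of 12 h (0.053) or on its second probe set, at 0.71 (adjusted p = 0.103). Loxl3 had 1939.9, 1733 and 1061 on the EGF arrays, against 3992, 4516 and 4750.5 on the control arrays, lower without overlap (log2 fold change of -1.51 ± 0.22 (SE) with an adjusted p of 0.000118). Loxl1, which acts on elastic fibres, gave -0.39 ± 0.15 and was not called (adjusted p = 0.0633). It passed without EGF replicate 1 or 2 of 12 h (0.0347 to 0.0367).

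Elastic fibre genes went both ways. Fibrillin 2 (Fbn2), the fibrillin of developing microfibrils, had 1492, 2403 and 1882 on the EGF arrays, against 419, 678 and 839 on the control arrays. It was higher (log2 fold change of 1.57 ± 0.42 (SE) with an adjusted p of 0.0108) but its signals at 4 h were 23.6 to 134 over both groups, and without control replicate 1 of 12 h it did not pass (0.0559). Fibrillin 1 (Fbn1), the main microfibril protein, had 20046, 24402 and 23247 on the EGF arrays, against 12035, 16724 and 17025 on the control arrays. That was a smaller rise (log2 fold change of 0.58 ± 0.17 (SE) with an adjusted p of 0.0186), lost without control replicate 1 or EGF replicate 2 of 12 h (0.0581 to 0.098), and its second probe set gave 1.00 (adjusted p = 0.000282). Eln, the elastic core itself, had 276, 250.3 and 269 on the EGF arrays, against 708, 731 and 535 on the control arrays, lower without overlap (log2 fold change of -1.23 ± 0.27 (SE) with an adjusted p of 0.00311). Fbln5 had 483, 414 and 585 on the EGF arrays, against 1102, 1302 and 1342 on the control arrays, lower as well (log2 fold change of -1.30 ± 0.17 (SE) with an adjusted p of 6.98e-05). Its controls were about 1249 on average at 12 h and 7034 at 4 h, in experiments whose arrays also differ in actin ratio.

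Fn1, the adhesive glycoprotein on which cells first assemble matrix, had 63221, 100929 and 70839.8 on the EGF arrays, against 49206, 50548 and 46383 on the control arrays. It was higher on every EGF array (log2 fold change of 0.66 ± 0.18 (SE) with an adjusted p of 0.0106). Postn had 8758, 8912 and 8854 on the EGF arrays, against 15672, 10319.8 and 13394 on the control arrays, lower at this time (log2 fold change of -0.55 ± 0.14 (SE) with an adjusted p of 0.00807). Sparc, which binds collagen as it is secreted, had -0.37 ± 0.14 and was not called (adjusted p = 0.0553). Without EGF replicate 2 it gave -0.48 (adjusted p = 0.0192). Its second probe set gave -0.02 (adjusted p = 0.971), and -0.63 without EGF replicate 3 of 12 h (0.00468). The thrombospondins Thbs2 and Thbs3, secreted modulators of adhesion, stood at -0.34 ± 0.18 and -0.37 ± 0.24 (adjusted p = 0.151 and 0.266).

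Set against each other without a test, fibrillar collagens had a median log2 fold change of -0.21 at 4 h and -0.37 at 12 h, over 8 genes, and basement membrane genes -0.04 and -0.60, over 16 genes. With arrays centred on their medians, these were -0.10 and -0.27, and 0.07 and -0.50. At 12 h, 1 fibrillar gene was higher and 3 lower, and 2 basement membrane genes were higher and 8 lower. The range within each class was wider than the gap between the medians, from -1.33 (Col11a1) to 1.17 (Col5a1) among fibrillar and from -2.18 (Col4a6) to 2.72 (Nid2) among basement membrane genes. With the second brightest probe set of each gene that has it, the 12 h medians were -0.42 for fibrillar and -0.23 for basement membrane genes, the opposite order. With EGF replicate 3 of 12 h left out as well, they were -0.61 and -0.30. Of 19 genes with at least 2 tested probe sets, the brightest and the second agreed in sign in 18 at 4 h and 17 at 12 h, and made the same call in 16 and 12. None of the pairs gave opposite calls (0 at each time by limma).

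Whether the EGF effect itself changed between the experiments was tested as the 12 h effect minus the 4 h effect. It was called higher in 2 of 50 genes and lower in 12, where 5.45% and 6.11% of all tested probe sets were (11.6% in all, or 14% of 10261 genes with 1 probe set each). The higher ones were Nid2 (1.83 ± 0.23, adjusted p = 0.000315) and Lox (0.79 ± 0.18, adjusted p = 0.0132). The lower ones with the largest differences were Col9a2 (-2.27 ± 0.40, adjusted p = 0.00291), Col4a6 (-1.68 ± 0.48, adjusted p = 0.0379), Col8a2 (-1.60 ± 0.21, adjusted p = 0.000436), Lamb2 (-1.36 ± 0.25, adjusted p = 0.00392), Lamb3 (-1.31 ± 0.36, adjusted p = 0.0324) and Postn (-1.09 ± 0.20, adjusted p = 0.00381). Postn is the only 1 of the 50 genes called in opposite directions, higher at 4 h and lower at 12 h. Its 4 h call was lost without EGF replicate 2 of 4 h (adjusted p = 0.0507) or both replicate 3 arrays of 4 h (0.0853). In 7 of the 16 basement membrane genes the effect was called lower at 12 h than at 4 h (11 had a negative difference), and in no fibrillar collagen was a difference called (0 of 8 by limma, 2 at an unadjusted p under 0.05). The difference of Col1a2 did pass as lower on its second probe set (-0.79, adjusted p = 0.0346). On its brighter probe set it passed with quantile normalization (-0.745, adjusted p = 0.0187). Nid2, Col4a5, Col8a2, Col9a2, Lamb2 and Postn were called in all 22 alternatives. The call of Lox was lost on its second probe set (adjusted p = 0.176). That of Col4a6 was lost on its second probe set (-0.52, adjusted p = 0.388), which was already called lower at 4 h (-1.02, adjusted p = 0.00856). It was lost too without EGF replicate 1 or 3 or control replicate 1 or 2 of 4 h or control replicate 2 or 3 of 12 h (0.0779 to 0.101), as was that of Lamb3 without any 1 of 9 arrays (0.0512 to 0.0938), those being EGF replicate 1 or 3 or any control of 4 h and EGF replicate 2 or any control of 12 h. Calls were also lost for Nid1 (0.0595 to 0.106, without any 1 array but control replicate 3 of 4 h and EGF replicates 2 and 3 of 12 h), Loxl3 (0.0509 to 0.113, without EGF replicate 1 or 2 or control replicate 1 or 3 of 4 h, or EGF replicate 2 or any control of 12 h), Lama4 (0.0516 to 0.0784, without EGF replicate 1 or 2 or any control of 4 h, or control replicate 2 or 3 of 12 h) and Col12a1 (0.055 to 0.085, without EGF replicate 1 or 2 or control replicate 1 or 2 of 4 h, or EGF replicate 2 or control replicate 2 or 3 of 12 h). Some differences passed without 1 array: Col11a1 without EGF replicate 1 or 3 of 12 h (0.0249 to 0.0493), Loxl2 without EGF replicate 3 of either time (0.0101 to 0.0266), Col14a1 and Fbln5 without EGF replicate 3 of 12 h (0.0332 and 0.0245), Eln without EGF replicate 3 of 4 h (0.0395), Lama5 without control replicate 3 of 12 h (0.0383) and Fbn2 without EGF replicate 1 of either time or control replicate 1 of 4 h (0.0355 to 0.0469). The count of lower genes was 6 without EGF replicate 1 or control replicate 1 of 4 h or control replicate 2 of 12 h, and 7 without control replicate 2 of 4 h or control replicate 3 of 12 h. Time, experiment and array set cannot be told apart in this comparison.

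Genes that make collagen were counted from a list of enzymes, chaperones and secretory factors that excludes the structural genes, of which 23 of 33 were tested. At 4 h, 0 were higher and 2 lower, the prolyl hydroxylase subunit P4ha3 (-0.73 ± 0.19) and the folding enzyme Fkbp14 (-0.60 ± 0.15), against 11.4% and 16.5% of all tested probe sets. At 12 h, 9 were higher and 4 lower, against 15.3% and 20.8%, with a median log2 fold change of 0.31 where the structural genes had -0.35. The smallest p-values at 12 h were those of P3h4 (1.19 ± 0.13), which helps modify collagen lysines, P4ha3 (-1.41 ± 0.19), P4hb (0.84 ± 0.15), the shared subunit of prolyl hydroxylase, P4ha2 (-0.85 ± 0.16), the glycosyltransferase Colgalt1 (0.75 ± 0.15) and Mia3 (0.55 ± 0.12), which loads procollagen into carriers. Adjusted p values of these 6 ran from 1.23e-05 to 0.00207. The collagen chaperone Serpinh1 gave 0.24 ± 0.14 and was not called (adjusted p = 0.201).

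Of 32 further matrix proteins that accompany these fibres and sheets, 22 were tested. At 4 h, 1 was higher, the latent TGF-beta binding protein Ltbp1 (0.87 ± 0.19), and 3 lower, Smoc1 (-0.47 ± 0.14), the laminin receptor Dag1 (-0.68 ± 0.20) and Emilin1 (-0.65 ± 0.21). At 4 h, 11.4% of all tested probe sets were higher and 16.5% lower. At 12 h, 4 were higher and 10 lower, against 15.3% and 20.8%, with a median of -0.19. Smoc2 (-3.59 ± 0.20) and Smoc1 (-2.39 ± 0.14), calcium-binding proteins related to Sparc, and Ecm2 (-3.46 ± 0.23) were lower. Ltbp1, which also binds fibrillin microfibrils, was higher (3.24 ± 0.19), and the microfibril protein Mfap5 (-1.91 ± 0.17) and Emilin1 (-1.31 ± 0.21) were lower. Adjusted p values of these 6 at 12 h ran from 2.59e-08 to 0.000255.

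**Figure D4:**
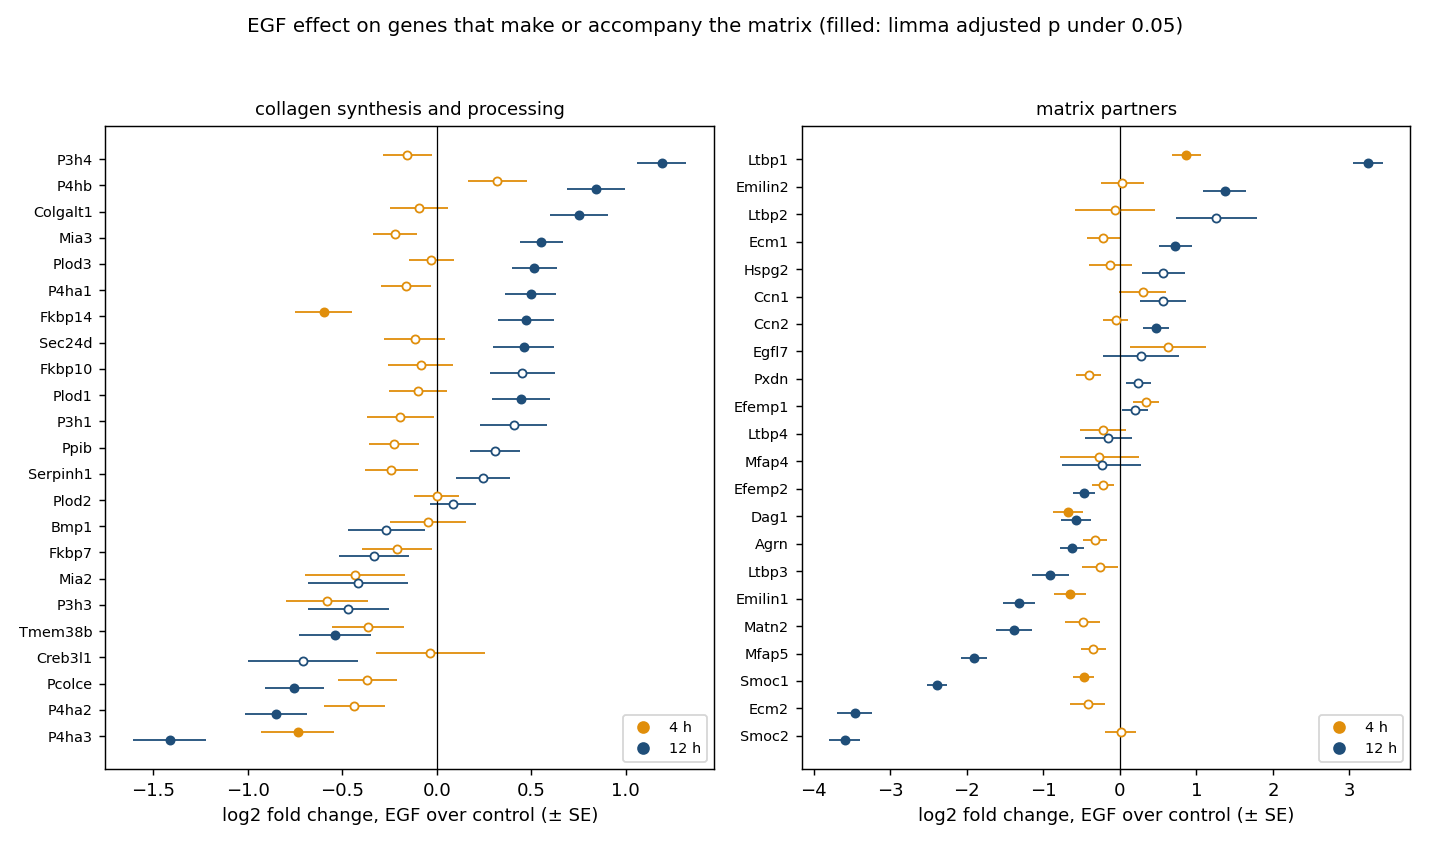
Log2 fold change of EGF over control (horizontal axis, ± SE, limma) at 4 h (orange) and 12 h (blue) for the tested genes of collagen synthesis and processing (left, 23 genes) and of other matrix proteins (right, 22 genes), ordered by the 12 h value; filled points have an adjusted p under 0.05. At 12 h, 9 filled points lie above 0 and 4 below it on the left, and 4 and 10 on the right.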

How the data were processed

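Total RNA of primary rat optic nerve head astrocyte cultures was measured on 12 Affymetrix 1-colour arrays. Titles gave the groups and replicate numbers, because every description calls its sample a control. The deposited values are linear intensity (signal) values per probe set from MAS5, per the submitters' processing notes, whose version and filters are not given in the sources used here. Per array, the 2% trimmed mean lay between 1500.46 and 1500.56, so no rescaling was done. No detection calls were used.

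The 57 control probe sets were left out. The 18625 probe sets with a mean signal of at least 215.4 (40th percentile) were tested on log2(signal + 24.4), the offset being the 10th percentile of all signals. Group means were fitted in limma 3.58.1 (R 4.3.3) with an intensity trend over all 12 arrays, with 8 residual degrees of freedom, two-sided, with Benjamini-Hochberg adjustment over all tested probe sets and a threshold of 0.05. The script was tested on simulated data. Genes were named from the platform annotation (20832 probe sets with 1 symbol, 436 with several, 9831 with none). Figures were drawn with matplotlib 3.10.9.

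The members, classes, gene lists and alternatives were chosen with earlier results of these data known. The named genes were all members called in a comparison, the 6 largest rises and falls with their arrays, 20 members fixed by name (of which Thbs1 has no probe set with a single symbol here), and the 6 smallest p per time of each further list. Array sets were told apart by time, a BioD signal above 1000 and an actin ratio above 5. After group means were removed, same-numbered pairs of an EGF and a control array had correlations of 0.121, 0.15 and 0.376 at 4 h. At 12 h these were 0.083, -0.111 and -0.103. Replicates 1 and 2 of 4 h correlated as well across numbers (0.142 and 0.138), so the number set only replicate 3 apart there. The main fit did not pair arrays by number at either time. The replicate block, an alternative, paired them at both times. For arrays, their number limits the precision (median SE 0.23).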

Additional observations from a re-analysis of the deposited data

Results flagged for a closer look

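The EGF effect differed between 12 h and 4 h in 14 genes by limma's test of the difference, given here as the 12 h effect minus the 4 h effect on the log2 scale. It was more positive at 12 h for Nid2 (1.83) and Lox (0.79). Among basement membrane genes it was more negative for Col4a6 (-1.68), Lamb2 (-1.36), Lamb3 (-1.31), Col4a5 (-0.97), Lamc1 (-0.92), Lama4 (-0.86) and Nid1 (-0.64). It was also more negative for Col9a2 (-2.27), Col8a2 (-1.60), Postn (-1.09), Loxl3 (-1.03) and Col12a1 (-0.94). On second probe sets the values were 0.42 for Nid1, 0.10 for Lamc1, 0.04 for Col12a1, -0.52 for Col4a6 and 0.53 for Lox, and none of these 5 passed (adjusted p = 0.176 to 0.983). EGF replicate 3 of 12 h was the highest EGF array of that time on the second probe sets of Nid1, Lamc1 and Col12a1. Without it those gave 0.01 for Nid1 (adjusted p = 0.978), -0.72 for Lamc1 (0.0219) and -0.71 for Col12a1 (0.593).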

How the results depend on the processing

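Of the 28 calls at 12 h, 20 were kept in all 23 alternatives, of the 9 at 4 h 2, and of the 14 differences between times 6 in all 22. Nid1 at 12 h reversed on its second brightest probe set (0.11), as did the differences between times of Nid1 (0.417), Lamc1 (0.099) and Col12a1 (0.041). An alternative chosen after seeing the data used those probe sets without EGF replicate 3 at 12 h: Nid1 at 12 h was then -0.30, and the differences between times were 0.014 for Nid1, still reversed, -0.72 for Lamc1 and -0.71 for Col12a1. In it Col1a1, not called in the report, had a difference of -0.615 (adjusted p = 0.00922), against 0.18 on its brighter probe set, 7 genes were lower at 4 h, and the median of basement membrane genes at 12 h was -0.303. The count of lower genes at 4 h was 1 with no filter on dim probe sets, with median centring, without both replicate 3 arrays at 4 h, and with no intensity trend, 7 with array set as the block and 5 with each experiment on its own, against 3; the cause was not tested. Differences between times that were higher numbered 4 with the array set as a block and 1 with the second brightest probe sets, against 2. The median of basement membrane genes at 12 h was -0.34 with no filter, where 3 dim genes enter, and -0.23 with second probe sets, against -0.60.

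Leaving out each array in turn gave 4 to 8 higher and 0 to 7 lower genes at 4 h, 6 to 10 higher and 18 to 24 lower at 12 h, and 2 to 3 higher and 6 to 15 lower differences between times. The medians were then -0.28 to -0.15 for fibrillar and -0.22 to 0.04 for basement membrane genes at 4 h, and -0.52 to -0.29 and -0.72 to -0.57 at 12 h. With the replicate block, in which arrays of a number are paired, 6 genes were higher and 3 lower at 4 h, and 10 and 20 at 12 h, where Col18a1 (adjusted p = 0.00756) and Col4a1 (0.027) passed. The differences between times of Col12a1, Lamb3 and Loxl3 did not pass with it (0.0612, 0.0764 and 0.0613) and that of Loxl2 did (0.0415). Apart from these and the 4 h calls of Col4a5 and Lamb2, the block changed no call. Dim signals limit what can be said of 19 genes.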
